A study of Caenorhabditis elegans with 32 samples.

Results

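The 26S proteasome subunit genes of Caenorhabditis elegans are described here across adult age and across a change in met-1 function. A gene was taken as a member where the isoform table names it pas-, pbs-, rpt- or rpn- with a number. This gave 30 transcripts of 30 genes among the 16422 transcripts of that table. The members comprise 14 genes of the core particle, 7 of the alpha ring (pas) and 7 of the beta ring (pbs), and 16 of the regulatory particle, 6 ATPases (rpt) and 10 non-ATPases (rpn). Of these, 29 have an estimate with status OK in the other 3 tables, in which 45859 of 46971 transcripts have that status. All 29 also passed the filter on low values.

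The proteasome degrades proteins tagged with ubiquitin. The barrel of the core particle is made of alpha rings, which gate entry, and beta rings, which cut peptides, while the regulatory particle binds the tagged protein, removes ubiquitin, and unfolds the protein with a ring of AAA ATPases. In C. elegans the transcription factor isoform SKN-1A, processed by the protease DDI-1 and the glycanase PNG-1, drives proteasome genes when the proteasome is impaired. The subunit gene rpn-6.1 is known from work on long-lived worms that lack a germline, where its level was tied to proteasome activity.

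Whole worms carrying glp-1(e2141), a temperature-sensitive allele that removes most of the germline, were raised at the restrictive temperature and sampled as adults of day 2 or day 12, so the controls share the germline loss. The 20 mRNA libraries form 10 groups of 2, which are, at both ages, glp-1 animals labelled L4440 (an empty vector commonly used for RNA interference by feeding), glp-1 animals labelled met-1 RNA interference, glp-1 animals serving as controls of a mutant, met-1(n4337); glp-1(e2141) mutants, and untreated glp-1 animals kept in parallel with chromatin samples. MET-1 is a methyltransferase of histone H3 lysine 36, and the series asks how that mark relates to ageing of gene expression. The 12 chromatin samples were not analysed here, and the labels do not say whether the libraries of a group came from separate cultures, so a p-value measures only the spread between these libraries.

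Values per library exist for the L4440 and met-1 RNA interference groups, 8 libraries in all, and 1 pooled value per age exists for the other groups. Relative read numbers of the 8 libraries ran from 0.355, in the second L4440 library of day 12, to 1.3. The summed met-1 level went against the labels. In FPKM, a fragment count scaled for transcript length and sequencing depth, it was in L4440 7.80 and 5.03 in young and 10.7 and 29.8 in old animals. Libraries with the met-1 label reached 13.03 and 27.5 in young animals, and 80.1 and 57.1 in old ones. Every direction between these arms is therefore drawn from the labels alone. Summed germline and oocyte markers stood at 15.4 to 17.7 FPKM at day 2 and 31.7 to 43.6 at day 12, over 14 of 15 listed genes matched. Summed sperm markers stood at 20.6 to 27.6 and 31.3 to 42.8 FPKM, over 9 of 10 genes. Of these, spe-11 stood at 0.48 to 0.89 FPKM at day 2 and 15.8 to 26.7 at day 12, and was called higher. The gene ssq-1 stood at 18.3 to 24.6 and 12.3 to 15.7 FPKM, and was called lower. Summed body wall muscle markers stood at 1326 to 1694 and 911 to 1138 FPKM, over the 6 of 8 genes with OK transcripts. Of 9 tested transcripts, 4 were called lower over both arms (lev-11, dim-1, unc-54 and mup-2) and 0 higher, against 18.5% and 13.9% of all transcripts. As deposited, myo-3 of that list went the other way, at 18.2 to 28.5 and 28.0 to 44.0 FPKM. Summed intestine markers, over 5 of 8 genes and mostly act-5, stood at 743 to 1074 and 1150 to 1542 FPKM. Of 6 tested transcripts of that list, 1 was called lower over both arms (ges-1) and 3 higher (pept-1 and ifb-2, the latter by more than 1 transcript). In pooled values the intestine sum was lower at day 12 in control animals (1259 and 653 FPKM), mutants (1415 and 822) and untreated animals (386 and 173, where act-5 is not listed). The muscle sum was lower there too, at 2634 and 699, 3663 and 852, and 846 and 248 FPKM. In the same order the germline and oocyte sum was 22.6 and 32.1, 44.3 and 25.4, and 15.2 and 23.4 FPKM. The sperm sum was 21.4 and 27.3, 33.5 and 21.1, and 19.9 and 18.5 FPKM. Both were thus lower at day 12 in mutants, and untreated animals list only 7 and 2 transcripts of these lists. The part of these shifts in the results below was not tested, and in whole animals fewer cells of a type cannot be told apart from less RNA per cell.

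Proteasome mRNA was abundant, and the core median stood above the regulatory median in every library, though single members overlap. Over the 8 libraries the means ran from 73.2 FPKM for rpn-6.1, a lid subunit, and 74.4 for rpn-1, a scaffold subunit of the base, to 242 for pbs-5, the chymotrypsin-like catalytic subunit. These means lie between percentiles 84.9 and 94.3 of the 18572 transcripts tested. FPKM is scaled per length, so levels are set side by side here. Whether that scaling holds evenly for short and long transcripts was not tested. The 10 highest members all belong to the core. The highest regulatory member was the lid subunit gene rpn-7, at 138 FPKM, and the lowest core member was pas-7, at 109.7.

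The core median lay between 125 and 211 FPKM in the 8 libraries and the regulatory median between 75.5 and 125. On the log2(FPKM + 1) scale the core median exceeded the regulatory median by 0.74 and 0.78 in L4440 at day 2 and by 0.88 and 0.71 at day 12. In libraries labelled met-1 RNA interference the excess was 0.46 and 0.67 at day 2 and 0.77 and 0.75 at day 12. With 2 libraries per group, the ages overlap in L4440 and do not overlap in the other arm. With means over members in place of medians, L4440 had 0.66 and 0.78 at day 2 and 0.85 in both libraries of day 12, so that its ages no longer overlap. The other arm then had 0.57 and 0.65 in young animals, against 0.71 and 0.78 in old ones. In the pooled values, from day 2 to day 12, it was 0.89 and 0.86 in control animals, 0.82 and 0.68 in mutants, and 0.75 and 0.77 in untreated animals. The ordering of core above regulatory mRNA was thus present at both ages in all 5 experiments, a word used here for the 5 age comparisons. Of these, L4440 and met-1 RNA interference are 2 arms of 1 fit.

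**Figure D1:**
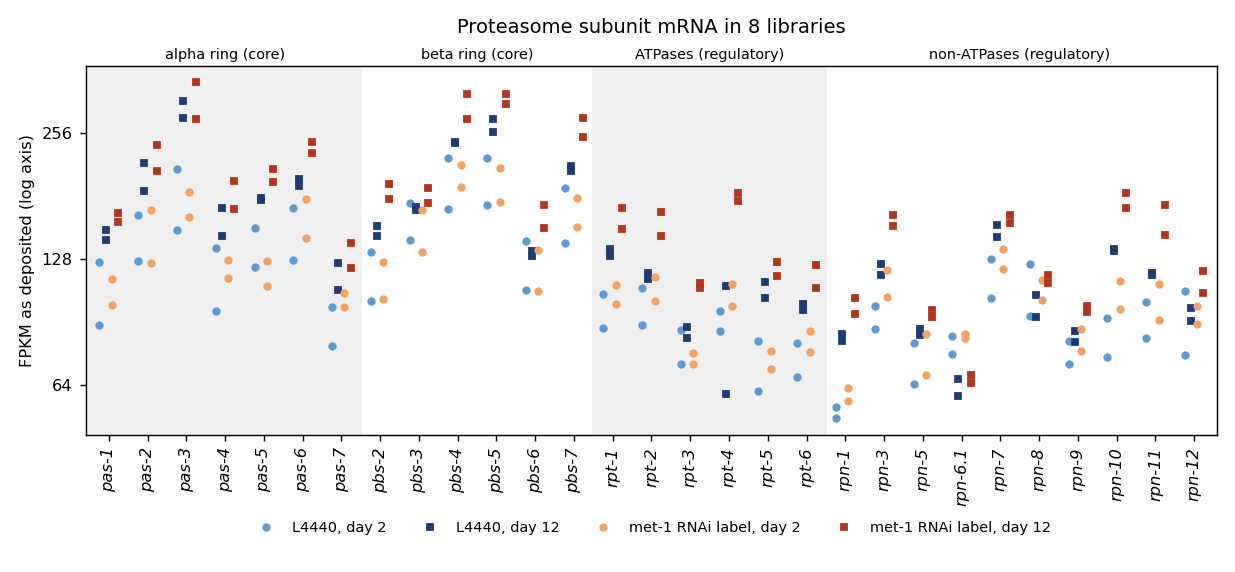
FPKM as deposited (log axis) of the 29 subunit genes in each of the 8 libraries, ordered by ring or subcomplex, with circles for day 2 and squares for day 12. Core genes sit higher than regulatory genes in the median, with overlap between single genes. Most squares lie above the circles before libraries are scaled to one median, whereas those of rpn-6.1 lie below.

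**Figure D2:**
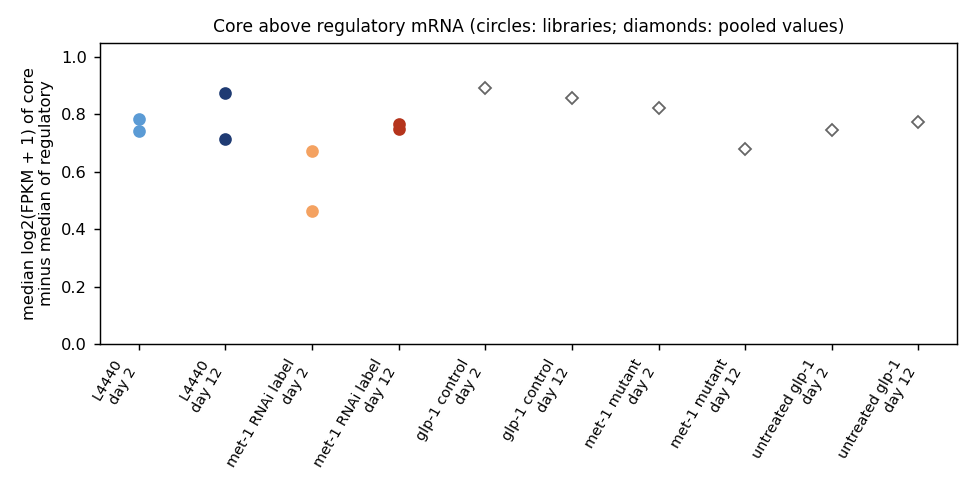
Median log2(FPKM + 1) of core members minus that of regulatory members, with 1 circle per library and 1 diamond per pooled value. All values lie between 0.46 and 0.89.

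The 3 catalytic beta subunits are pbs-1, pbs-2 and pbs-5. The trypsin-like subunit gene pbs-2 had a mean of 142 FPKM. The caspase-like subunit gene pbs-1 (NM_067724) is the member without an OK status. Its locus is given as a bundle of many genes on chromosome IV (380017 to 4526957), marked HIDATA at both ages in the control and mutant tables. It was listed at 171 and 194 FPKM in the L4440 libraries of day 12 and at 0 in the other 6 libraries. The other members of its ring are not at 0 in any library, so a listed 0 here can be a failed estimate and no fold change was taken. In untreated animals, whose table has no such mark, pbs-1 stood at 108 FPKM at day 2 and 86.8 at day 12.

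With age, 2 regulatory subunits fell relative to the median transcript and no subunit rose. Over both arms, with 4 libraries per age, rpn-6.1 fell by 0.84 ± 0.08 on the log2 scale (SE, limma adjusted p = 0.00114) and rpn-8, a lid subunit that pairs with the deubiquitinase RPN-11, fell by 0.53 ± 0.13 (limma adjusted p = 0.0278). Of all tested transcripts 18.5% were called lower and 13.9% higher in this comparison, 32.4% in all, so 2 of 29 lower and 0 of 29 higher are both shares below the background. At an unadjusted p below 0.05 there were 4 of 29 members, against 42.4% of all transcripts, the others being rpn-9 (limma adjusted p = 0.0508) and pbs-3 (limma adjusted p = 0.115). The members' median change was −0.04, the same as the −0.04 of all transcripts.

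The direction of the family as a whole depends on how libraries are scaled. As deposited, the median tested transcript was 0.47 higher at day 12 than at day 2, and the members' median was 0.46 higher. With values as deposited 21 members were called higher and 1 lower, against 37.3% and 10.6% of all transcripts. With quantile normalization the counts were 15 and 1, against 17.3% each way, and with equal summed FPKM they were 1 (pas-3) and 2, against 17% and 15%. With libraries centred to one median they were 0 and 2, as above. The corresponding medians of members were 0.46, 0.28, 0.04 and −0.04. The share of higher calls among all called transcripts was 77.9%, 50%, 53.2% and 42.8% in the same order. Changes below are relative to one median unless stated.

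In the alpha ring, whose members form the gate, none of 7 genes passed. The highest change of all members was that of pas-3, whose transcript is listed in a bundle on chromosome I from 4573621 to 5262993. Its level was 150.3 and 211 FPKM in L4440 at day 2 and 279 and 305 at day 12. In libraries labelled met-1 RNA interference it was 162 and 185 at day 2 and 276 and 339 at day 12. As deposited, all 4 libraries of day 12 lie above all 4 of day 2. Centred to one median the change was 0.26 ± 0.16 (limma adjusted p = 0.276). It was called higher with values as deposited (0.77, limma adjusted p = 0.0077), with quantile normalization (0.64, limma adjusted p = 0.00386) and with equal summed FPKM (0.34, limma adjusted p = 0.0432). The lowest of the ring was pas-7, at −0.14 ± 0.12.

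In the beta ring none of 6 genes passed. The highest change was that of the catalytic subunit gene pbs-5, at 0.05 ± 0.13, and pbs-2, also catalytic, changed by 0.02 ± 0.14. The lowest was that of the structural subunit gene pbs-3, at −0.32 ± 0.13. The 6 ATPases also had no call, with rpt-5 highest at 0.15 ± 0.13 and the member transcript of rpt-4 lowest at −0.20 ± 0.20.

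The transcript rpt-4 had the widest replicate spread. At day 12 in L4440 its libraries stood at 60.8 and 110.3 FPKM, against 86.0 and 96.3 at day 2. In libraries labelled met-1 RNA interference it was 99.1 and 112 at day 2 and 177 and 184 at day 12. A second rpt-4 transcript, NM_001026943, which the rule does not include, stood at 74.7 FPKM in the L4440 library where the first was at 60.8. Summed over both transcripts, L4440 at day 12 gave 136 and 125 FPKM, against 91.0 and 115 at day 2, so the low library is not low for the gene. The age change of rpt-4 in L4440 was −0.68 ± 0.28 for the transcript and −0.20 ± 0.17 for the sum. Over both arms the sum changed by 0.02 ± 0.12, so the lowest place among the ATPases holds for the transcript and not for the gene.

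The non-ATPases spread most, from 0.21 to −0.84. The ubiquitin receptor gene rpn-10 was highest, at 0.21 ± 0.12 (limma adjusted p = 0.231). It was called higher with values as deposited (0.72, limma adjusted p = 0.00316) and with quantile normalization (0.51, limma adjusted p = 0.00323). Its level was 74.4 and 92.3 FPKM at day 2 and 135 and 134 at day 12 in L4440, and 97.2 and 113 against 170 and 184 in the other arm, so as deposited its ages do not overlap. The deubiquitinase gene rpn-11 changed by −0.01 ± 0.13. The level of rpn-8 was 93.3 and 124 FPKM at day 2 and 93.0 and 104.9 at day 12 in L4440, and 102 and 114 against 112 and 117 in the other arm. As deposited, its ages overlap, with a change of −0.02 (limma adjusted p = 0.918), so the fall of rpn-8 holds only relative to other transcripts. In pooled values rpn-8 stood at 90.5 and 82.9 FPKM at day 2 and day 12 in control animals, 90.8 and 121 in mutants, and 71.2 and 73.1 in untreated animals. Relative to the median these are changes of −0.13, 0.42 and 0.12, so its sign was not shared by all experiments. It also missed the threshold with quantile normalization (limma adjusted p = 0.0673), with a pseudocount of 5 (limma adjusted p = 0.0562) and without either L4440 library of day 12 or any 1 library labelled met-1 RNA interference (limma adjusted p = 0.0576 to 0.0927).

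**Figure D3:**
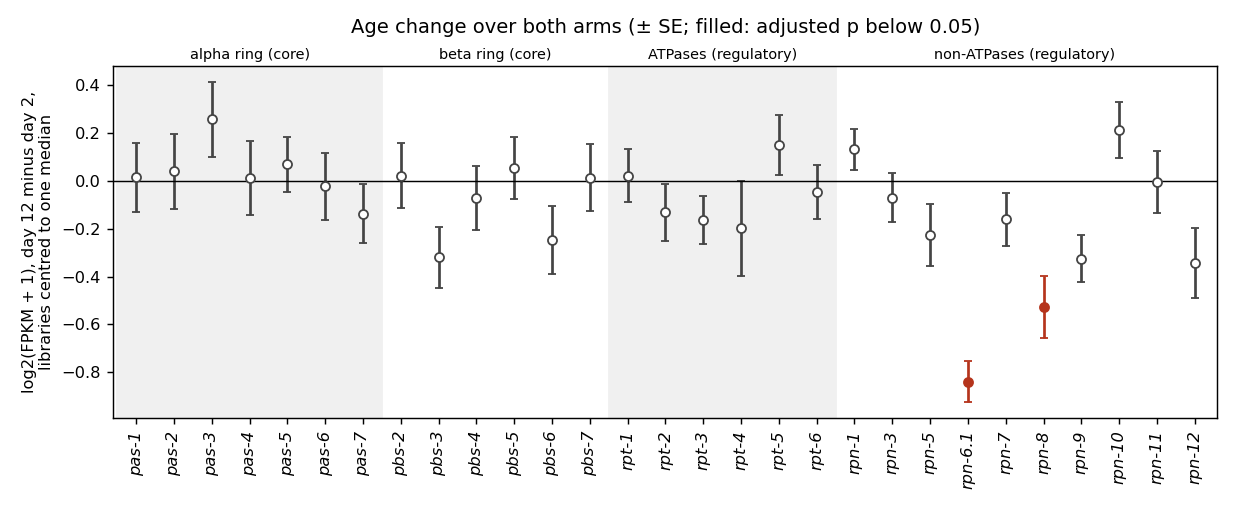
Age change over both arms of each subunit gene, as the difference in log2(FPKM + 1) between day 12 and day 2 after libraries were centred to one median, with bars of ± SE (4 libraries per age). The filled points, rpn-6.1 at −0.84 and rpn-8 at −0.53, are the members with an adjusted p below 0.05.

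The gene rpn-6.1 encodes the lid subunit orthologous to human PSMD11, which clamps the regulatory to the core particle. Its transcript NM_001027450 is placed on chromosome III between 6959325 and 6961888 by the tables, whose build is not given. In L4440 it stood at 75.7 and 83.6 FPKM at day 2 and at 66.3 and 60.3 at day 12. In libraries labelled met-1 RNA interference it stood at 84.5 and 82.7 at day 2 and at 67.4 and 64.8 at day 12. All 4 libraries of day 12 lie below all 4 of day 2, as deposited and without any scaling.

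Within L4440 rpn-6.1 fell by 0.85 ± 0.12 (limma adjusted p = 0.00685), and within libraries labelled met-1 RNA interference by 0.82 ± 0.12 (limma adjusted p = 0.00711). It was the only member called in either arm. The background was 6.78% higher and 11.9% lower of transcripts in L4440, and 8.35% and 12.3% in the other arm. The difference of its age change between arms was 0.03 ± 0.17 (limma adjusted p = 1). Over both arms it was called lower under every alternative run, from −0.33 with values as deposited (limma adjusted p = 0.0169) to −0.97 with no filter on low values. Within single arms the call was lost with values as deposited (limma adjusted p = 0.0716 in L4440 and 0.0659 in the other arm). It was also lost in L4440 with only the groups compared in the fit (limma adjusted p = 0.0512) and in the other arm without the first library of day 2 (limma adjusted p = 0.0521).

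Pooled values of rpn-6.1 were 52.2 and 43.8 FPKM at day 2 and day 12 in control animals, 67.8 and 45.5 in mutants, and 48.4 and 33.4 in untreated animals. The authors' deposited table gives a log2 change of −0.54 with q = 0.0215 for the last. Relative to each table's median transcript, the changes were −0.25, −0.56 and −0.44. A second transcript, NM_001027451, took 31.3 FPKM in control animals at day 2 but less than 6.2 in each of the 8 libraries. Summed over both, the gene went from 83.4 to 56.5 FPKM in control animals and from 95.4 to 67.9 in mutants. All 5 age comparisons thus have rpn-6.1 lower at day 12, though only those with library values, which are 2 arms of 1 fit, carry a test made here.

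The paralogue rpn-6.2 was low, with both transcripts under 5.5 FPKM in each of the 8 libraries, and neither was called (limma adjusted p = 0.53 and 0.0884). Other subunits that the naming rule does not take in were rpn-2, a base scaffold that the isoform table lacks, and rpn-13, a ubiquitin receptor listed there under its sequence name. The level of rpn-2 ran from 55.8 to 67.1 FPKM at day 2 and from 81.7 to 96.9 at day 12, with an age change of 0.03 ± 0.10 relative to the median (limma adjusted p = 0.826). The receptor gene rpn-13 ran from 78.0 to 98.9 FPKM at day 2 and from 88.4 to 116 at day 12, and it fell by 0.37 ± 0.11 relative to the median (limma adjusted p = 0.0458).

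The 29 members did not shift as one body across the 5 experiments, which share no libraries. In L4440 the sign was lower in 25 and higher in 4, with a median of −0.15, against −0.07 for all transcripts. The median was −0.14 for core and −0.22 for regulatory members. In libraries labelled met-1 RNA interference 20 were higher and 9 lower in sign, with a median of 0.09 (all transcripts −0.01). Without the second L4440 library of day 2 the L4440 median was 0.04, with 18 higher, and without the first it was −0.35, with 0 higher. In the other arm the median was −0.04 without the first library of day 2 and 0.18 without the second.

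Members also moved together between replicates of 1 group. From the first to the second L4440 library of day 2, 29 of 29 members were higher, by a median of 0.37, against 0.06 for all transcripts. The same count was 15 of 29 in L4440 at day 12, 28 of 29 at day 2 and 27 of 29 at day 12 in libraries labelled met-1 RNA interference, with medians of 0.00, 0.22 and 0.17. Differences of the family median of this size therefore occur between libraries of a single group.

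Counts of members with non-overlapping ages were not above the background. In L4440, with centred values, 10 of 29 were lower at day 12 in both libraries, against 34.3% of all transcripts, and 0 were higher, against 25.5%. In the other arm 5 were lower and 7 higher, against 33.8% and 30.4%.

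In pooled values, past 1.5-fold relative to the table median, control animals had 0 of 29 members either way, where the background was 23.1% higher and 25% lower. Their median was 0.02. Mutants had 3 members higher and 0 lower (background 27.1% and 26.9%), with a median of 0.31 and 26 of 29 higher in sign. Those past the fold were pas-3, from 199 to 390.2 FPKM, rpn-10, from 94.7 to 149, and rpt-4, from 33.6 to 79.6. With both rpt-4 transcripts summed, the relative change of rpt-4 was 0.39 in place of 1.23.

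Untreated animals had 1 of 30 members past 1.5-fold, pas-3, from 127 to 208 FPKM (background 18.6% higher and 21.2% lower). In the authors' deposited table, at q below 0.05, there were 2 members higher, pas-3 (log2 0.71, q = 0.000366) and rpn-10 (0.46, q = 0.0355), and rpn-6.1 was lower, against 13% higher and 18.6% lower of all transcripts. Set side by side, pas-3, rpn-1, rpn-10 and rpt-5 were higher relative to the median in 5 of 5 experiments, and pbs-3 and rpn-6.1 lower in 5 of 5. The higher signs in L4440 hang on the first library of day 2. Without it 0 of 29 members were higher in L4440, with pas-3 at −0.09 and rpn-10 at −0.02. As deposited, rpn-1 went from 44.1 to 43.4 FPKM in untreated animals, so it was higher there only relative to the median. The other 23 were mixed in sign. The share of all transcripts with the same sign in all 5 is not given here, so these counts have no background beside them. The change of pas-3 was 0.18 in L4440, 0.33 in libraries labelled met-1 RNA interference, 0.39 in control animals, 0.98 in mutants and 0.79 in untreated animals.

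**Figure D4:**
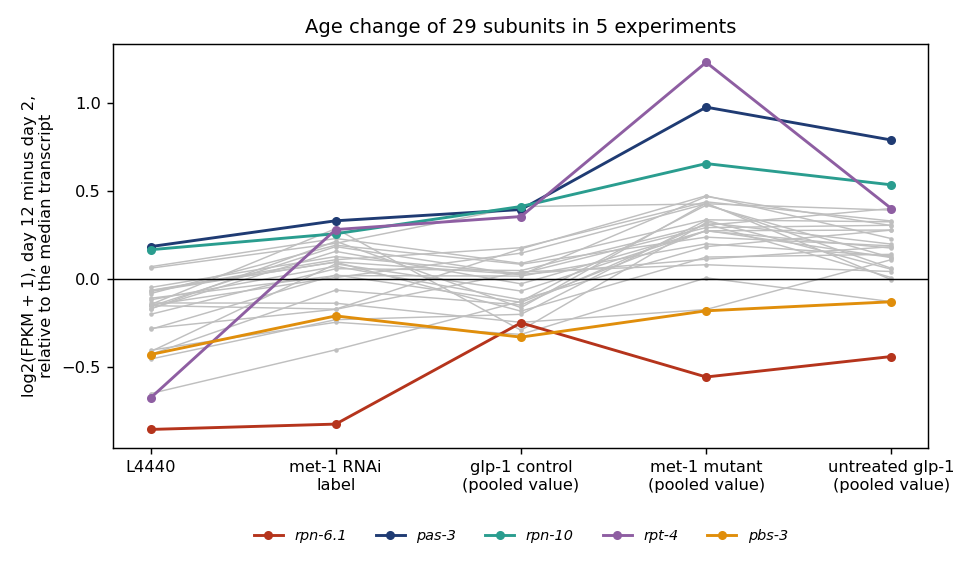
Age change in log2(FPKM + 1), day 12 minus day 2, of 29 subunit genes in 5 experiments, relative to the median transcript, where the first 2 experiments are fits over 2 libraries per group and the other 3 are single pooled values without a spread. Every line is the member transcript of a gene, with rpn-6.1 between −0.85 and −0.25 throughout, pas-3 between 0.18 and 0.98, and rpt-4 moving between −0.68 and 1.23. With transcripts summed, rpt-4 was at −0.20, 0.25, −0.01 and 0.39 in L4440, the other arm, control animals and mutants. In the same order the sum of rpn-6.1 was at −0.87, −0.84, −0.56 and −0.48.

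Between the arms at the same age, no member passed. At day 2 the libraries labelled met-1 RNA interference had 18 of 29 members higher in sign, with a median of 0.03, and 0 of 29 called by limma (background 0.0754% each way). At an unadjusted p below 0.05 there were 0 of 29, against 3.47% of all transcripts. None was non-overlapping (background 11.7% higher and 22.1% lower). The median ran from −0.21 to 0.23 when single libraries were left out, so no direction of the family can be given at day 2.

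At day 12 all 29 members were higher in sign in libraries labelled met-1 RNA interference, with a median of 0.24 against 0.02 for all transcripts. No member was called (0 of 29, limma, background 0.307% higher and 0.194% lower), and the lowest adjusted p was 0.285. At an unadjusted p below 0.05 there were 3 of 29, against 10.3% of all transcripts, namely the lid subunit gene rpn-3 (0.38 ± 0.14) and the ATPase genes rpt-3 (0.36 ± 0.14) and rpt-4 (1.12 ± 0.28, or 0.52 ± 0.17 with its transcripts summed). The libraries did not overlap in 23 of 29 members, against 22% of all transcripts, with 0 lower, against 19%. The core median was 0.21 and the regulatory median 0.24.

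At day 12 rpn-3 stood at 124 and 117 FPKM in L4440 and at 154 and 163 in the other arm, and the groups do not overlap. Its levels at day 2 were 86.9 and 98.8 against 104 and 120.2. The level of rpn-11 at day 12 was 117 and 118 FPKM against 146 and 173, also without overlap (0.42 ± 0.18, limma adjusted p = 0.518). For rpn-6.1 the difference was 0.06 ± 0.12, and its libraries overlap once centred. Leaving out single libraries gave medians between 0.15 and 0.34, the lowest without the second library of day 12 labelled met-1 RNA interference. Replicates of that group differ by a median of 0.17 over the members. The 23 members are thus counted over 2 libraries a group, in a family whose members move together between libraries.

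The difference of the age change between arms was called in 0 of 29 members (limma, background 0.264% higher and 0.108% lower), with 1 of 29 at an unadjusted p below 0.05, against 5.69% of all transcripts, rpt-3 (0.50 ± 0.20, limma adjusted p = 0.878). Its sign was higher in 27 and lower in 2, with a median of 0.18 against 0.04 for all transcripts. Without the second L4440 library of day 2 the median was 0.01 with 16 higher, and without the first it was 0.42 with 29 higher. Leaving out single libraries labelled met-1 RNA interference gave medians between 0.08 and 0.30.

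In the mutant against control animals, which are other libraries, 0 of 29 members passed 1.5-fold relative to the median at day 2 (background 15.7% higher and 11.6% lower), with 14 higher and 15 lower in sign and a median of −0.02. At day 12, 0 of 29 passed (background 15.9% and 13.4%), with 28 higher in sign and a median of 0.31. The member transcript lower in sign was that of rpn-6.1, at 43.8 FPKM in control animals and 45.5 in mutants, or −0.12 relative to the median. Summed over both rpn-6.1 transcripts the values were 56.5 and 67.9 FPKM, and the sum was higher in sign relative to the median. The largest differences were those of rpt-4 (0.58) and rpn-11 (0.51), the latter at 102 against 165 FPKM. Summed over both its transcripts, rpt-4 stood at 97.8 FPKM in control animals and 163 in mutants. Its difference is thus not confined to the member transcript. The median transcript itself was 0.18 higher in the mutant table at day 12, and with values as deposited 6 members passed the fold. The share of all transcripts past the fold as deposited is not given here. These tables may have been scaled separately and give 1 value per age, so the differences have no replicate check.

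**Figure D5:**
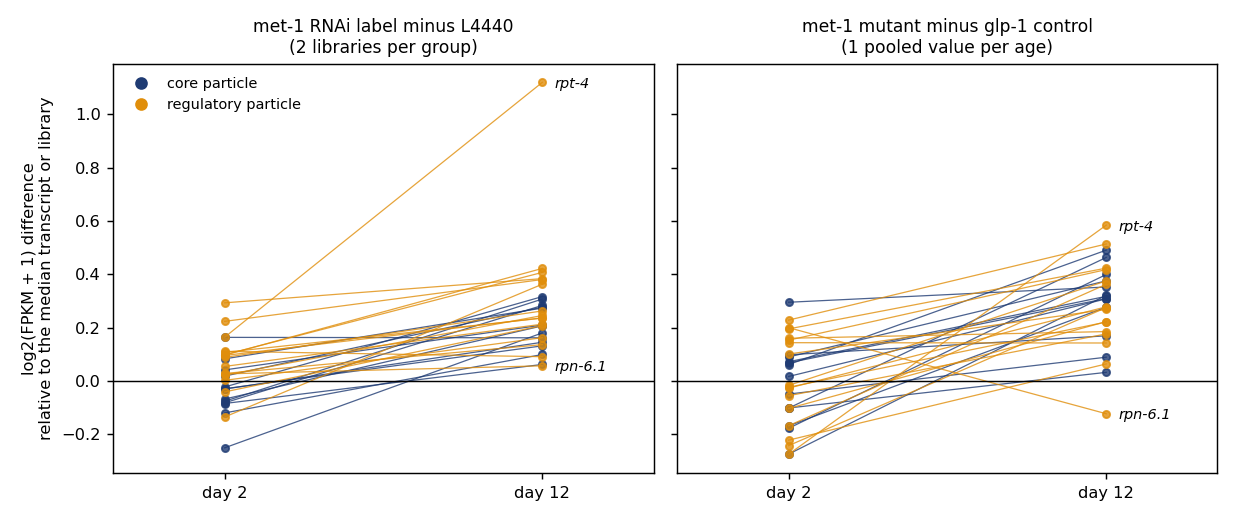
Differences in log2(FPKM + 1) at day 2 and day 12 for the member transcript of each of the 29 subunit genes, on the left between libraries labelled met-1 RNA interference and L4440 (2 libraries per group) and on the right between met-1 mutants and control animals (1 pooled value each), relative to the median. At day 12 all points lie above 0 on the left and 28 of 29 on the right, with medians of 0.24 and 0.31.

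Among the regulators of proteasome genes, 6 transcripts of 5 genes were tested for age over both arms, and 1 rose and 1 fell, where 13.9% of all transcripts were called higher and 18.5% lower. The protease gene ddi-1 rose by 0.37 ± 0.11 (limma adjusted p = 0.0455), from 31.0 and 36.3 FPKM to 63.3 and 59.8 in L4440 and from 30.6 and 35.1 to 65.1 and 58.8 in the other arm. One skn-1 transcript, NM_171347, fell by 1.91 ± 0.22 (limma adjusted p = 0.0018), from 56.7 and 87.3 to 26.1 and 23.97 FPKM in L4440 and from 58.5 and 81.0 to 21.996 and 31.3 in the other arm. Another, NM_171345, changed by 0.17 ± 0.22 and was not called. Which of them encodes the SKN-1A isoform is not given in the tables.

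Of 8 tested transcripts of proteasome-associated genes, 0 rose and 1 fell (background again 13.9% and 18.5%), the main transcript of the ubiquitin shuttle gene ubql-1 (NM_170894, −0.39 ± 0.09, limma adjusted p = 0.0182). As deposited it went from 134 and 148 to 151 and 137 FPKM in L4440, and from 158 and 160 to 191 and 175 in the other arm. Its fall thus holds only relative to other transcripts. Pooled values went from 129 to 119 FPKM in control animals, 146 to 172 in mutants and 97.0 to 82.8 in untreated animals. The gene aip-1, an arsenite-inducible factor of the proteasome, changed by 0.59 ± 0.18 (limma adjusted p = 0.0529). Of 13 tested transcripts for ubiquitin supply and substrate extraction, 3 rose and 0 fell, against the same 13.9% and 18.5%. The ubiquitin-activating enzyme gene uba-1 rose by 0.61 ± 0.10 (limma adjusted p = 0.00592), from 68.4 and 65.5 to 135 and 138 FPKM in L4440. The segregase gene cdc-48.1 rose by 0.58 ± 0.12 (limma adjusted p = 0.0159), from 79.9 and 94.4 to 178 and 177 FPKM, and the ubiquitin-ribosomal fusion gene ubq-2 by 0.67 ± 0.19 (limma adjusted p = 0.0407). Pooled values of ubq-2 went from 5548 to 5201 FPKM in control animals and from 5498 to 5678 in mutants. The medians of these 3 lists were −0.15, 0.15 and 0.22, against −0.04 for all transcripts. Between arms, 0 transcripts of these lists were called by limma at either age.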

How the data were processed

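The mRNA values of 4 tables were used. The FPKM values were deposited by the authors, per the file headers, except that the table with library values gives no unit and was taken as FPKM. Log2 fold changes and q-values of the isoform table were deposited by the authors. BWA, TopHat, TopHat2, Cuffdiff and CASAVA 1.8 are listed without a role, per the submitters' processing notes, and neither genome build nor annotation nor strand setting is stated in the sources used here. Groups were taken from the sample titles. Transcripts with status OK and FPKM of at least 1 in at least 2 of 8 libraries were tested with limma 3.58.1 in R 4.3.3 on log2(FPKM + 1), which understates changes of low transcripts, with libraries centred to one median, 4 groups in 1 fit, two-sided, Benjamini-Hochberg adjusted p below 0.05. The fit was tested on simulated data. Tables with 1 pooled value per age got no test, and a 1.5-fold change relative to the median served as a call, among transcripts with FPKM of at least 1 at either age. Members called, the extremes of each subgroup and of level, the catalytic subunits and the ubiquitin receptors and deubiquitinase were named. Other members named at day 12 and in the 5 experiments were chosen after their values were seen. The members, the lists of related genes and the markers were chosen with earlier results of these data known. Alternatives covered scaling, pseudocount, filter, fold, transcripts summed per gene, the replicate number and each library left out. Depth was judged as relative reads from the steps between low values, and no counting intervals were given.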

Additional observations from a re-analysis of the deposited data

How the results depend on the processing

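Counts of members called with age moved mainly with the scaling of libraries. For higher calls the counts of 29 as deposited were 4 in L4440, 14 in libraries labelled met-1 RNA interference and 21 over both arms. Of all 18572 transcripts 4193, 4417 and 6935 were higher. With quantile normalization the members' counts were 2, 11 and 15, against 1743, 2086 and 3219 transcripts. Equal summed FPKM gave 1 over both arms, against 3163. For lower calls, values as deposited gave 0, 0 and 1, against 1352, 1418 and 1973 transcripts. Only the groups compared gave 0 in L4440, against 1362. Over both arms 1 member was lower with a pseudocount of 5 and with quantile normalization, against 4031 and 3215. With transcripts summed per gene, chosen after seeing the data, 2 were lower in L4440, against 2403 of 16475. Over both arms 3 members were lower with transcripts summed, against 3575 of 16475. The count was also 3 with a pseudocount of 0.1, against 3444 of 18572, and with no filter on low values, against 8382 of 26259. Leaving out 1 library gave medians of members from −0.35 to 0.04 in L4440, from −0.04 to 0.18 in the other arm and from −0.13 to 0.04 over both arms. The cause of these moves was not tested. At 2-fold, mutants had 1 member higher and untreated animals 0, and 6 were past the fold as deposited for mutants at day 12. Shares of all transcripts at these settings are not given here. With means over members the mean excess of core over regulatory mRNA was 0.72 in L4440 at day 2 and 0.74 at day 12 in the other arm, against 0.76 for both with medians, values per library being given above. Over all tested transcripts, deviations of same-numbered libraries correlated at −0.06 to 0.13. Among the members, the second library was the higher in 29 and 15 of 29 in L4440 at day 2 and day 12. In the other arm it was the higher in 28 and 27. Whether replicate numbers pair the libraries for the members was not tested. With the replicate block 2 members were lower in L4440, rpn-6.1 and rpn-8 (limma adjusted p = 0.0344 for the second), and rpn-9 joined over both arms (limma adjusted p = 0.0315). Of all 18572 transcripts 2145 were lower in L4440 and 3324 over both arms with that block. No call turned to the opposite direction, but rpn-8, called over both arms, changed by 0.09 in the met-1-labelled arm as deposited, against −0.40. The pooled tables give no depth and no spread.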
